A study of Mus musculus with 24 samples.

Results

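Kidney stromal cells with stabilised beta-catenin were compared between E13.5 and E12.5 (E, embryonic day). The members are the 6 of 24 libraries whose labels give the genotype beta-catSO, called SO here, on a CD1 background: 3 at E13.5 and 3 at E12.5. They were chosen by these labels alone, and no measured value took part in the choice. The same stages of wild-type cells on the CD1 background, with 3 libraries each, were set beside them. The other 12 libraries of the series, from cells with deficient beta-catenin (SD) and from wild-type cells on a C57BL/6 background at the same stages, entered the shared estimate of the spread. All groups, the wild-type ones included, came from mice with FoxD1Cre-eGFP, in which the Foxd1 promoter drives Cre and a green fluorescent protein in the kidney stroma. Kidneys were dissociated with collagenase and the stromal cells taken by flow sorting, some of them a second time. Which allele stabilises beta-catenin is not said in the labels. The design text speaks of 3 kidneys for each genotype, but neither it nor the labels tie a library to a kidney, animal or litter. The p-values therefore rest on a spread between libraries that may be technical.

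The stroma of the embryonic kidney surrounds the nephron progenitors and the branching ureteric bud, and cells that have expressed Foxd1 go on to form interstitial cells, mesangial cells, pericytes and other mural cells of vessels. In the canonical Wnt pathway, beta-catenin escapes breakdown when a Wnt ligand binds a Frizzled receptor and an LRP co-receptor, enters the nucleus and acts with TCF and LEF factors on target genes. Many of these targets are themselves inhibitors of the pathway, such as Axin2, Nkd1 and Notum. A stabilised beta-catenin is not broken down, so the pathway runs without the ligand. Between these stages the wild-type kidney moves from its first branches to the first nephron precursors, and the stroma sorts into a cortical and a medullary part.

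Levels are given in log2 CPM, the read count of a gene scaled to an adjusted library size. This size is the library's total times a scaling factor, which ran from 0.972 to 1.04 over the 24 libraries. Whole reads recovered from them gave 12.3, 21.2 and 12.6 M reads (M for mega) in the SO libraries of E13.5 and 6.18, 6.43 and 6.67 M in those of E12.5, so that depth goes with stage. The libraries held stromal transcripts: 8 stromal markers summed to between 10098 and 10988 CPM in SO at E13.5, and to between 8523 and 8821 CPM in SO at E12.5. Of the 8, 1 rose, Col1a1, and 4 fell, Foxd1, Meis1 and Pdgfrb among them. Of the lists of other cells given next, the summed endothelial transcripts separated the stages in SO, and the macrophage, erythroid and liver sums overlapped between them. The 17 endothelial genes summed, in order of size, to 356, 547 and 551 CPM in SO at E13.5 and to 136, 295 and 306 CPM in SO at E12.5, without overlap. The 15 macrophage genes summed to 495, 1193 and 1265 CPM at E13.5 and to 567, 589 and 860 CPM at E12.5. The 9 erythroid genes in the file ran from 84.0 to 589 CPM at E13.5 and from 68.4 to 997 CPM at E12.5. Liver genes did not pass 3.54 CPM in any SO library, and Apoa2 was at 0 at both stages. With the spread of all 24 libraries, no member of the macrophage, endothelial, erythroid or liver lists passed limma's test between the stages in SO. The changes of all 15 macrophage and 16 of 17 endothelial genes were positive, with medians of 0.53 and 1.21. From the 6 SO libraries alone, 9 of the 17 endothelial genes were called higher, and 0 of the macrophage, erythroid and liver genes were called. What part these transcripts have in the results was not tested beyond the fit that uses their levels as covariates. Of the CD1 wild-type libraries of E13.5, replicate 1 held 1108 CPM of endothelial transcripts, against 119 and 71.9 CPM in replicates 2 and 3. Replicate 3 of that group held 887 CPM of liver transcripts, against 0.781 and 1.33 CPM in replicates 1 and 2. The CD1 wild-type libraries of E12.5 held liver transcripts too, with 208, 198 and 193 CPM in replicates 1, 2 and 3.

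Between the stages 980 of 13803 genes passed the test in SO, which is 7.10% of those tested: 415 were higher at E13.5 (3.01%) and 565 lower (4.09%). A gene is said to rise or fall here where limma's p, adjusted over the whole table by the Benjamini-Hochberg method, was under 0.05, with the spread estimated from all 24 libraries. Of these genes 106 rose and 94 fell at least 2-fold, and the median log2 change was 0.61 among the rises and -0.48 among the falls. At an unadjusted p under 0.05 there were 2930 genes, and the 3 libraries of E13.5 lay beyond the 3 of E12.5 in 3933 genes, 28.5% of those tested. In sorted bulk RNA, fewer cells of a type and less RNA per cell cannot be told apart. The first principal component of the 6 SO libraries, with 33.4% of the variance, put E13.5 at 47.7, 19.2 and 30.2 and E12.5 at -31.4, -32.1 and -33.7. The second, with 27.1%, spread the E13.5 libraries from -46.9 to 50.7 and the E12.5 libraries from 2.39 to 13.3. The count fell to 356 without E12.5 replicate 2, to 506 without E12.5 replicate 1, to 529 without E13.5 replicate 2 and to 489 without E13.5 replicate 3. With the macrophage, endothelial and erythroid levels as covariates 204 genes were called, 178 of them among the 980, and with reads thinned to the depth of the shallowest SO library 790 were called, 750 of them among the 980.

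**Figure D1:**
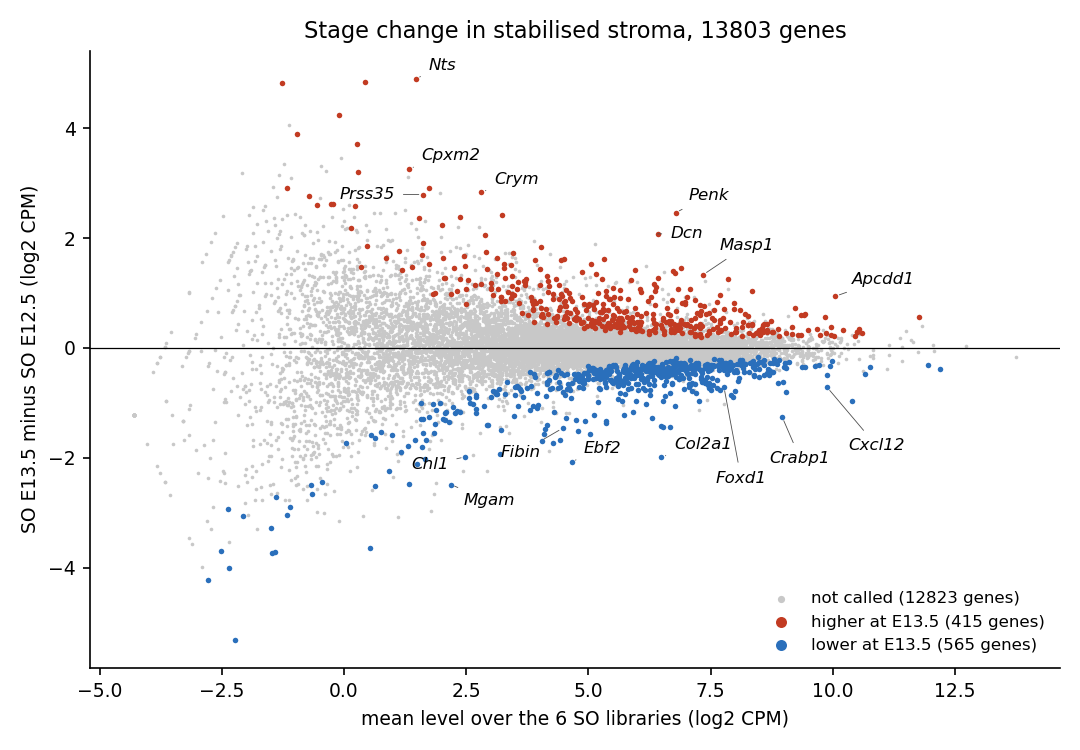
Each point is 1 of 13803 genes, with its mean level over the 6 SO libraries in log2 CPM on the x axis and the change at E13.5 minus E12.5 in log2 CPM on the y axis. The 415 genes called higher are red, the 565 called lower blue and the 12823 not called grey, and the changes of highly expressed genes are smaller than those of weakly expressed ones.

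The largest rise by log2 change among the named genes was that of Nts. Nts, which encodes the peptide neurotensin (chromosome 10, 102481756 to 102490486), had 134, 304 and 276 reads in SO at E13.5 and 2, 2 and 5 reads at E12.5, or 3.46, 3.85 and 4.46 against -1.30, -1.35 and -0.27 log2 CPM. The groups were far apart, and the fitted change was 4.90 ± 1.25 (log2, SE; adjusted p = 0.0193). Penk, which encodes the precursor of enkephalin peptides and is known in medullary stroma (chromosome 4, 4133531 to 4138819), stood at 7.58, 8.11 and 8.34 log2 CPM at E13.5 and 5.47, 5.12 and 6.07 at E12.5. Every E13.5 library lay above every E12.5 library, by 2.46 ± 0.62 (adjusted p = 0.0181). Crym, which encodes a thyroid hormone-binding crystallin (chromosome 7, 120186380 to 120202111), had 4.0, 4.31 and 4.38 log2 CPM at E13.5, against 1.42, 1.45 and 1.31 at E12.5, a rise of 2.83 ± 0.67 (adjusted p = 0.0126). The secreted carboxypeptidase-like gene Cpxm2 (3.26, adjusted p = 0.0455), the protease-like gene Prss35 (2.79, 0.00714), the sulfatase gene Arsi (2.91, 0.0247), the kainate receptor gene Grik3 (2.42, 0.0356), the adrenergic receptor gene Adra2a (2.37, 0.0386), the synaptic scaffold gene Dlgap1 (2.05, 0.0190) and the matrix proteoglycan gene Aspn (2.38, 0.0208) rose as well. Aspn overlaps Cenpp on the other strand, and the strand of counting is not given, so its reads may include those of Cenpp. Hspb1, a small heat shock protein gene with near-identical stretches at 2 other loci, rose by 2.23 (adjusted p = 0.00332). Among the large rises the calls of Crym, Prss35 and Hspb1 held without any 1 of the 6 SO libraries, and those of the others ended without some of them: Cpxm2 without each (adjusted p at most 0.208), Grik3 and Adra2a without each but E13.5 replicate 1 (at most 0.155 and 0.174), and Arsi likewise (at most 0.113). Nts, Penk and Aspn lost the call without E12.5 replicate 1 or 2 or E13.5 replicate 2 or 3 (up to 0.0825, 0.0938 and 0.113), and Dlgap1 without E12.5 replicate 1 or 2 or E13.5 replicate 3 (up to 0.114). With the macrophage, endothelial and erythroid levels as covariates, Crym (adjusted p = 0.123), Prss35 (0.138) and Hspb1 (0.0818) lost the call. So did all other rises of this paragraph. With voom weights Crym (0.136), Prss35 (0.119), Arsi (0.134) and Adra2a (0.119) lost it.

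The rises of smallest p were narrower and steadier. Cavin1, which encodes a coat protein of caveolae (chromosome 11, 100956733 to 100970887), stood at 7.49, 7.57 and 7.80 log2 CPM at E13.5 and at 6.34, 6.12 and 6.03 at E12.5. The gap between the groups was several times their spread (1.46 ± 0.19, adjusted p = 0.000130). Masp1, which encodes a protease of the lectin pathway of complement and overlaps Rtp4 on the other strand (chromosome 16, 23449417 to 23520815), had 7.80, 8.01 and 8.22 log2 CPM at E13.5 and 6.49, 6.6 and 6.94 at E12.5, a rise of 1.33 ± 0.18 (adjusted p = 0.000130). Rhob, a small GTPase gene of actin and endosome control (chromosome 12, 8497661 to 8500009), had 7.69, 7.85 and 7.82 log2 CPM, against 7.17, 7.16 and 7.11 at E12.5, a rise of 0.64 ± 0.09 (adjusted p = 0.000359). The libraries of each stage lay close together. The lactate dehydrogenase gene Ldha, the collagen prolyl hydroxylase gene P4ha1 and the actin-binding gene Synpo2 completed the 6 rises of smallest p and are given with their groups.

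Among the falls Ebf2, a helix-loop-helix factor gene (chromosome 14, 67233292 to 67430918), had the smallest p of all: 3.77, 3.45 and 3.64 log2 CPM at E13.5, against 5.49, 5.80 and 5.77 at E12.5. It fell by 2.07 on the log2 scale, or 4.20-fold (adjusted p = 7.30e-07), with a gap many times the spread within a stage. Chl1, a neural cell adhesion molecule gene (chromosome 6, 103510586 to 103750211), had 1.41, 1.83 and 1.23 log2 CPM at E13.5 and 3.29, 3.84 and 3.28 at E12.5 (-1.98 ± 0.23, adjusted p = 4.38e-05). Tmem108, a transmembrane protein gene, had 0.88, 0.21 and 0.84 log2 CPM at E13.5 and 2.71, 2.80 and 2.5 at E12.5 (-2.03 ± 0.28, adjusted p = 0.000210). Both genes were low in all E13.5 libraries, and neither group overlapped the other. The homeobox gene Pitx1 (-1.93, adjusted p = 0.0389) and the T-box gene Tbx1 (-1.73, 0.00771) fell, as did the leucine-rich repeat gene Lrrn3 (-1.69, 0.000359), which overlaps Immp2l on the other strand, the O-glycosylation gene Galnt13 (-1.78, 0.00622) and the glucosidase gene Mgam (-2.48, 0.0386). Rflnb, which encodes a filamin partner (chromosome 11, 76019194 to 76027782), had 6.20, 6.20 and 6.30 log2 CPM at E13.5 and 6.98, 7.45 and 7.43 at E12.5 (-1.05 ± 0.10, adjusted p = 3.45e-06). Pik3r3, a regulatory subunit gene of phosphoinositide 3-kinase (chromosome 4, 116221618 to 116303056), had 6.24, 6.26 and 5.90 log2 CPM, against 7.0, 7.03 and 6.99 at E12.5 (-0.87 ± 0.09, adjusted p = 2.01e-05). In both, the stages stood apart without overlap. The antisense transcript Lrp8os2 (-1.89, adjusted p = 0.0111) cannot be told from Lrp8 without the strand of counting. Smarca5-ps (-1.80, 0.0386) and Polr2l (-1.68, 0.0447) are near-identical to 7 and 3 other loci, so their values are uncertain. The calls of Mgam and Pitx1 ended without each SO library but E13.5 replicate 1, where the adjusted p reached 0.131 and 0.163, that of Polr2l without each but E13.5 replicate 3 (up to 0.180), that of Smarca5-ps without each but E13.5 replicate 2 (up to 0.129), and that of Lrp8os2 without E12.5 replicate 2 (0.0711).

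**Figure D2:**
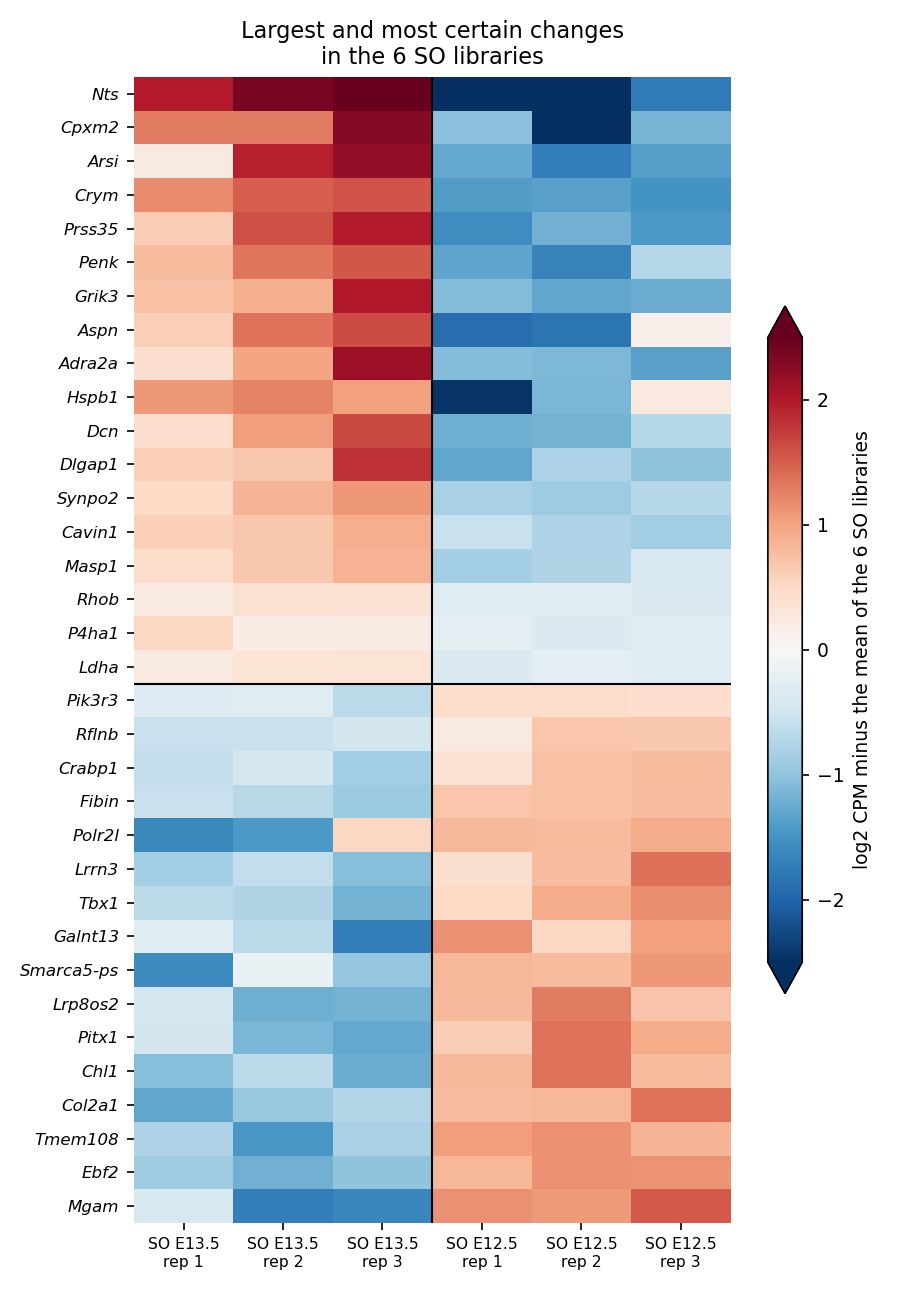
Rows are the genes with the largest changes or the smallest p in SO, columns the 6 SO libraries with E13.5 on the left, and colour is the log2 CPM of a library minus the mean of the 6, from -2.5 to 2.5. Colours of the stages separate in nearly all rows, the exceptions being E12.5 replicate 3 for Aspn and Hspb1 and E13.5 replicate 3 for Polr2l, and E13.5 replicate 1 is often the palest of its group among the rises.

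Wnt and beta-catenin target genes stood higher at E13.5 than at E12.5 in SO. Of 23 targets in the file 8 rose and 0 fell, and 22 had a positive change, with a median of 0.58 beside -0.00 over all genes. Of all genes tested 3.01% rose. Nkd1, which encodes an inhibitor of Dishevelled (chromosome 8, 88521354 to 88594884), had 9.30, 9.47 and 10.00 log2 CPM at E13.5, against 8.82, 8.78 and 8.99 at E12.5. All E13.5 libraries were above all E12.5 libraries, by 0.73 ± 0.13 (adjusted p = 0.00140). Its relative Nkd2 (chromosome 13, 73818534 to 73847631) had 7.16, 7.42 and 7.84 log2 CPM at E13.5 and 6.43, 6.29 and 6.89 at E12.5 (0.93 ± 0.21, adjusted p = 0.0100). Dkk2, which encodes a secreted ligand of LRP6 (chromosome 3, 132085292 to 132180304), had 5.84, 6.25 and 6.45 log2 CPM, against 4.81, 5.38 and 5.17 at E12.5 (1.06 ± 0.23, adjusted p = 0.00720). In each of these genes E13.5 replicate 3 was the highest of the 6 SO libraries.

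Apcdd1, which encodes a membrane-bound Wnt inhibitor (chromosome 18, 62922231 to 62961179), had 10.23, 10.44 and 10.89 log2 CPM at E13.5 and 9.43, 9.49 and 9.82 at E12.5 (0.94 ± 0.18, adjusted p = 0.00294). Axin2, the scaffold of the complex that breaks beta-catenin down (chromosome 11, 108920349 to 108950783), had 8.48, 8.38 and 8.78 log2 CPM at E13.5, against 7.90, 7.85 and 8.15 at E12.5, a 1.5-fold rise (0.58 ± 0.15, adjusted p = 0.0241). The groups did not overlap in either gene. The hyaluronan receptor gene Cd44 (0.76, adjusted p = 0.0131), the secreted Wnt-binding protein gene Sfrp2 (0.77, 0.0246) and Myc (0.57, 0.0462) were the other rises. Lef1, a DNA-binding partner of beta-catenin, had 7.66, 7.66 and 7.87 log2 CPM at E13.5 and 7.36, 7.23 and 7.5 at E12.5. Notum, which encodes an enzyme that takes the lipid off Wnt ligands, had 8.10, 8.24 and 8.81 log2 CPM at E13.5, against 7.18, 7.31 and 7.46 at E12.5. The stages did not overlap in either gene, yet neither passed the test with the spread of all 24 libraries (0.37 and 1.06, adjusted p = 0.669 and 0.693). From the 6 SO libraries alone both were called (adjusted p = 0.0269 for Lef1 and 0.00211 for Notum). Other targets without a call were Ccnd1 (0.48, adjusted p = 0.0553), Kremen1 (0.46, 0.0828), Bambi (0.67, 0.0776), Tcf7 (0.43, 0.454), Sp5 (0.34, 0.868) and Znrf3 (-0.04, 0.899).

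The beta-catenin gene itself, Ctnnb1 (chromosome 9, 120929216 to 120960507), had 10.45, 10.41 and 10.44 log2 CPM at E13.5, against 10.61, 10.68 and 10.62 at E12.5. The E13.5 libraries were the lower ones by 0.20 ± 0.06, with an adjusted p of 0.0660 that misses the threshold and of 0.0478 from the 6 SO libraries alone. A whole-gene count cannot show an altered exon, and the gene overlaps Ulk4 on the other strand. Beside the 3.01% of all genes that rose and the 4.09% that fell, 0 of 26 Wnt ligands, receptors and co-receptors rose and 2 fell. These were the co-receptor gene Lrp6 (-0.41, adjusted p = 0.0205), which has near-identical stretches at 15 other loci, and the receptor gene Fzd3 (-0.41, 0.0439). Left out 1 at a time, the SO libraries gave 4 to 7 called targets: 4 without E12.5 replicate 2 or E13.5 replicate 3, and 5 without E12.5 replicate 1 or 3 or E13.5 replicate 2. The calls of Axin2 (adjusted p up to 0.129), Nkd2 (up to 0.0744), Cd44 (up to 0.0896), Sfrp2 (up to 0.0944), Myc (up to 0.166), Lrp6 (up to 0.103) and Fzd3 (up to 0.184) were among those that ended, and those of Nkd1, Dkk2 and Apcdd1 held. With the other cell types as covariates 1 of the 23 targets was called and their median change was 0.53.

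**Figure D3:**
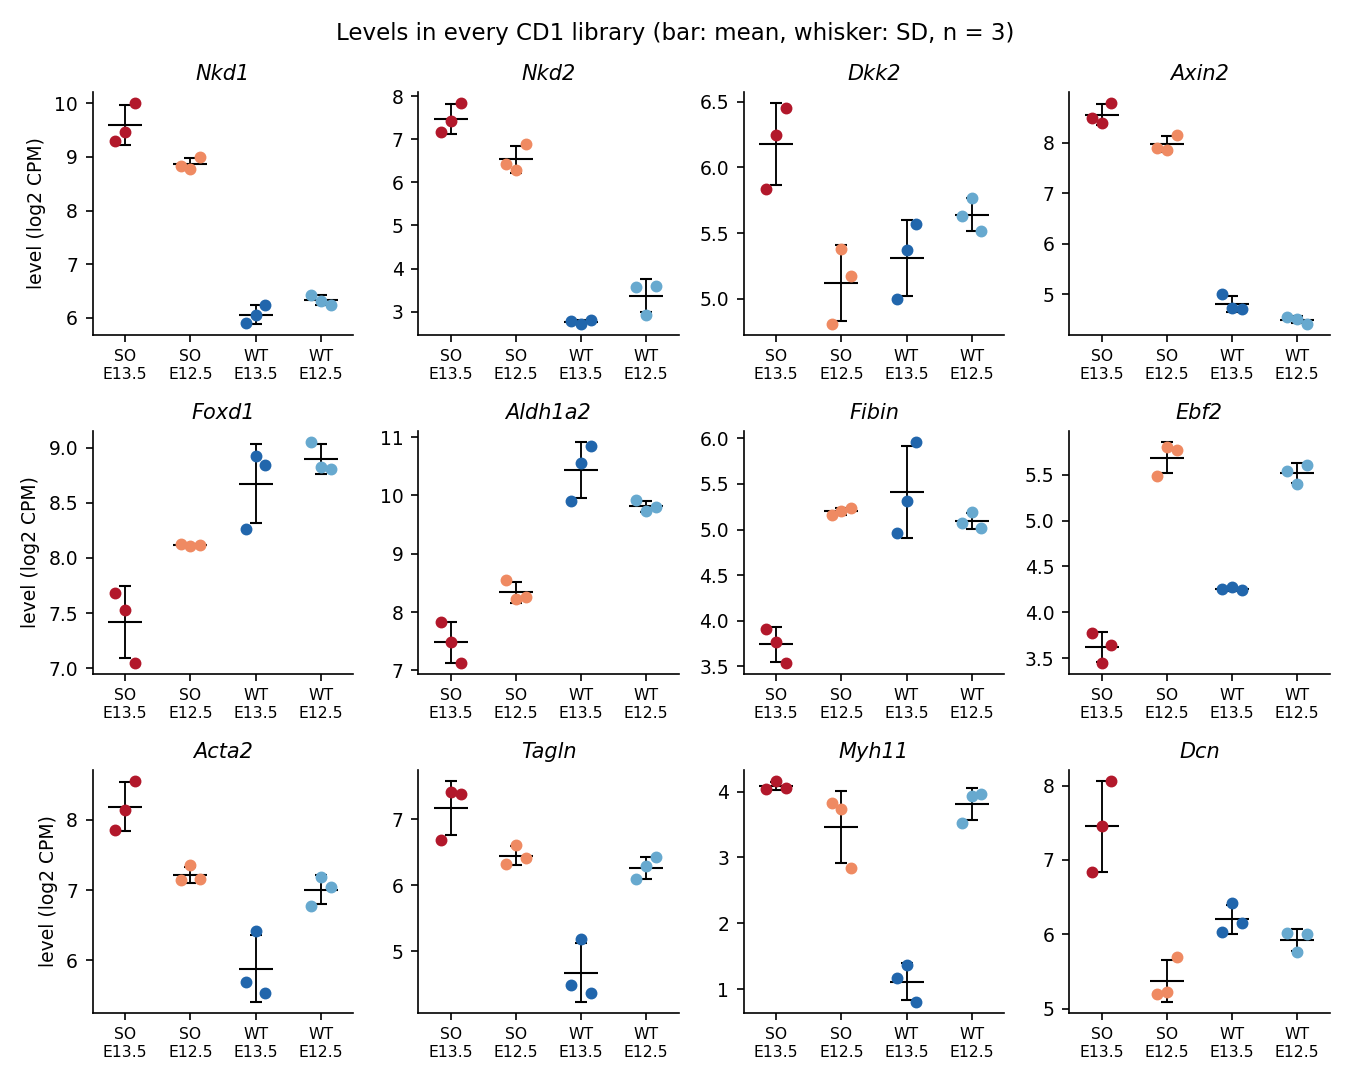
Each panel is 1 gene, with the level in log2 CPM on the y axis and the 4 CD1 groups on the x axis: SO at E13.5 and E12.5, then wild-type at E13.5 and E12.5. Points are libraries and bars the mean and SD of 3 libraries, and Nkd1, Nkd2, Dkk2 and Acta2 are higher at E13.5 in SO while Foxd1, Aldh1a2, Fibin and Ebf2 are lower.

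Genes of cortical and progenitor stroma were lower at E13.5. Of 17 in the file 9 fell and 1, Crym, rose, with a median change of -0.49, beside 4.09% of all genes that fell. Foxd1, the forkhead gene that marks stromal progenitors (chromosome 13, 98354242 to 98359305), had 7.68, 7.53 and 7.05 log2 CPM at E13.5, against 8.13, 8.11 and 8.12 at E12.5. Its E12.5 libraries were nearly equal and all lay above those of E13.5 (-0.70 ± 0.15, adjusted p = 0.00637). Fibin, a secreted protein gene known in cortical stroma (chromosome 2, 110360917 to 110363183), had 3.91, 3.77 and 3.54 log2 CPM at E13.5 and 5.16, 5.20 and 5.24 at E12.5 (-1.46 ± 0.17, adjusted p = 5.48e-05). Aldh1a2, which makes retinoic acid from retinaldehyde (chromosome 9, 71215789 to 71296243), had 7.83, 7.49 and 7.13 log2 CPM, against 8.55, 8.22 and 8.26 at E12.5 (-0.86 ± 0.17, adjusted p = 0.00330). In all 3 genes E13.5 replicate 3 was the lowest of the 6 libraries. Cxcl12, the chemokine gene that guides vessel growth, fell by 0.71 (adjusted p = 0.00350), and the homeobox genes Meis2 (-0.63, 0.00362) and Meis1 (-0.61, 0.00833) fell too. Sall1, a zinc finger gene better known in nephron progenitors (-0.42, adjusted p = 0.00752), and Dchs1, the protocadherin ligand of Fat4 (-0.35, 0.00833), also fell. Of 10 medullary stroma genes 2 rose, Penk and the Wnt target Nkd1, and 1 fell, Cdkn1c, with a median change of 0.14. These counts stand beside the 3.01% of all genes that rose and the 4.09% that fell. With 1 SO library left out, 1 to 2 of the 10 rose and 0 to 1 fell.

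The retinoic acid list followed with 4 falls and 1 rise among 16 genes. The counts of this list and of the nephron progenitor list stand beside the 4.09% of all genes that fell and the 3.01% that rose. Crabp1, which holds retinoic acid in the cytoplasm (chromosome 9, 54764748 to 54773110), had 8.34, 8.54 and 8.12 log2 CPM at E13.5, against 9.32, 9.69 and 9.75 at E12.5 (-1.25 ± 0.14, adjusted p = 2.75e-05). Crabp2, which delivers it to its nuclear receptors (chromosome 3, 87948666 to 87953376), had 6.45, 6.35 and 6.37 log2 CPM at E13.5 and 7.01, 7.12 and 6.99 at E12.5 (-0.65 ± 0.08, adjusted p = 8.71e-05). Both stood apart without overlap. The retinol dehydrogenase gene Rdh10 fell (-0.50, adjusted p = 0.0436). Of the nephron progenitor list, with 18 genes, Meox1 (-1.03, adjusted p = 0.00211), Dpf3 (-1.34, 0.00328), Wt1 (-0.54, 0.00725) and Sall1 fell and Crym rose, while the 7 defining markers of nephron progenitors summed to between 186 and 228 CPM at E13.5 and between 245 and 292 CPM at E12.5. Left out 1 at a time, the SO libraries gave 7 to 9 falls of the stromal list, and the calls that ended included those of Meis1 without E13.5 replicate 3 (adjusted p = 0.0510), Sall1 and Wt1 without E12.5 replicate 1 (0.0539 and 0.0509), and Rdh10 without any (up to 0.125). With the other cell types as covariates 2 of the 17 stromal genes, Fibin and Aldh1a2, were called and the median was -0.38.

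Of 14 contractile genes of smooth muscle in the file 4 rose at E13.5 in SO, beside 3.01% of all genes, and 0 fell. All 14 had a positive change, with a median of 0.59, and 10 of them did not pass the test. Synpo2, an actin-binding protein gene of muscle (chromosome 3, 123076519 to 123236149), had 4.93, 5.28 and 5.52 log2 CPM at E13.5, against 3.63, 3.56 and 3.72 at E12.5, a 3.04-fold rise (1.6 ± 0.24, adjusted p = 0.000410). Tpm2, a tropomyosin gene (chromosome 4, 43514711 to 43523765), had 6.55, 7.22 and 7.14 log2 CPM at E13.5 and 6.29, 6.21 and 6.21 at E12.5 (0.73 ± 0.14, adjusted p = 0.00330). Acta2, which encodes smooth muscle actin (chromosome 19, 34241090 to 34255590), had 7.86, 8.14 and 8.55 log2 CPM, against 7.14, 7.35 and 7.16 at E12.5 (0.96 ± 0.27, adjusted p = 0.0354). The myosin light chain gene Myl9 (chromosome 2, 156775420 to 156781658) had 7.55, 8.0 and 7.88 log2 CPM at E13.5 and 7.27, 7.13 and 7.38 at E12.5 (0.55 ± 0.15, adjusted p = 0.0314). None of the 4 overlapped between the stages, and E13.5 replicate 1 was the lowest of its group in each. Tagln (0.72, adjusted p = 0.170), Myh11 (0.62, 0.472) and Cnn1 (0.89, 0.394), the markers of later smooth muscle, did not pass the test, though their stages did not overlap either. Of the 12 pericyte and mural genes the potassium channel genes Abcc9 (1.01, adjusted p = 0.0121) and Kcnj8 (1.1, 0.0326) rose and Pdgfrb fell (-0.30, 0.0437). These counts stand beside the 3.01% of all genes that rose and the 4.09% that fell. The call of Acta2 ended without each SO library but E13.5 replicate 1 (adjusted p at most 0.157), those of Kcnj8 and Pdgfrb likewise (up to 0.126 and 0.145), that of Myl9 without E12.5 replicate 1 or 2 or E13.5 replicate 2 or 3 (up to 0.141) and that of Abcc9 without E12.5 replicate 1 or 2 (up to 0.0716), so that 2 contractile genes were called without E12.5 replicate 1 or 2 or E13.5 replicate 2 or 3. With the other cell types as covariates Synpo2 alone was called, with a median of 0.61 over the 14.

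Many contractile genes are known to be bound by serum response factor at CArG boxes in their promoters. The 3 promoters below, from 250 bases before to 50 after the start, are shown because they hold such a box and their genes rose in SO at E13.5. Myl9 alone is of the contractile list, of whose 11 promoters 1 held the box. A second promoter of Myl6 and the promoter of Acta2, which also rose, held none and are not shown. Boxes with a mismatch were not searched, so these counts leave them out. They are RefSeq sequences on GRCm38.p6, 5′ to 3′ on the strand of the gene, and the capitals mark the CArG box. The windows are chr2:156775214-156775513 on the plus strand for Myl9, chr10:79988350-79988649 on the plus strand for Cnn2 and chr10:128492960-128493259 on the minus strand for Myl6.
Myl9: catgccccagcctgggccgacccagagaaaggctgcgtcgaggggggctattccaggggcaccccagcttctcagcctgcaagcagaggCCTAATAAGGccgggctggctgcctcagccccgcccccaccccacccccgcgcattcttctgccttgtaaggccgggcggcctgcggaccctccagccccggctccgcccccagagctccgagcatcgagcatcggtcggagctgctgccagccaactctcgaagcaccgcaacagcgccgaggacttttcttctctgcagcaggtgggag
Cnn2: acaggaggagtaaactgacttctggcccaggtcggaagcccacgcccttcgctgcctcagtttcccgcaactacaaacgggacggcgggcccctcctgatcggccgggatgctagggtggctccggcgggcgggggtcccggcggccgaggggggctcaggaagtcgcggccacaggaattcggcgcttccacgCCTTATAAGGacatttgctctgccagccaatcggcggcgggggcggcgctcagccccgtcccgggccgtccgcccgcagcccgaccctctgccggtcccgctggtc
Myl6: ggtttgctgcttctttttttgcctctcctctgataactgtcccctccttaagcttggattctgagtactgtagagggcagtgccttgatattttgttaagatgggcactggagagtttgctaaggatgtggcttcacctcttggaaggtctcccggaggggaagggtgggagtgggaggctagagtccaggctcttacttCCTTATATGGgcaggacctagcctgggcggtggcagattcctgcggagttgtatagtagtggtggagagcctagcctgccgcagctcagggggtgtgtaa

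The boxes began at -161, -56 and -50 from the start site. Cnn2, a calponin gene, and Myl6, a light chain gene of many cell types, were named after their values were seen. Cnn2 had 9.20, 9.39 and 9.47 log2 CPM at E13.5 and 8.89, 8.95 and 9.07 at E12.5 (0.38, adjusted p = 0.0313). Myl6 had 8.05, 8.28 and 8.18 log2 CPM at E13.5, against 7.85, 7.83 and 7.95 at E12.5 (0.29, adjusted p = 0.0235). The stages did not overlap in either, and both calls ended without E12.5 replicate 1 or 2 or E13.5 replicate 2 or 3, where the adjusted p reached 0.132 and 0.121. The box, searched as a strict match with no mismatch and equal on both strands, was in 15 of 432 promoters of genes that rose (3.47%), in 7 of 571 of those that fell (1.23%) and in 176 of 13702 promoters of all tested genes (1.28%). The letters CTTTG with A or T at both of the next positions, a core of TCF and LEF sites, on either strand, were in 9.49% of the promoters of genes that rose, 12.4% of those that fell and 11.3% of all. A gene can have several promoters here, a match is a description, and no test was run on these shares.

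Of 41 extracellular matrix genes 13 rose, beside 3.01% of all genes, and 0 fell, with 37 positive changes and a median of 0.41. Dcn, which encodes the collagen-binding proteoglycan decorin (chromosome 10, 97479609 to 97518143), had 6.84, 7.45 and 8.06 log2 CPM at E13.5, against 5.20, 5.23 and 5.70 at E12.5, a 4.21-fold rise (2.08 ± 0.33, adjusted p = 0.000686). Sparc, a matrix glycoprotein gene that binds collagen (chromosome 11, 55394500 to 55423183), had 9.95, 10.17 and 10.23 log2 CPM at E13.5 and 9.47, 9.52 and 9.67 at E12.5 (0.56 ± 0.11, adjusted p = 0.00458). Bgn, which encodes biglycan (chromosome X, 73483602 to 73495933), had 8.11, 8.36 and 8.53 log2 CPM, against 7.54, 7.60 and 7.73 at E12.5 (0.71 ± 0.16, adjusted p = 0.00931). The order of the E13.5 libraries was the same in the 3 genes, with replicate 1 lowest and replicate 3 highest. The elastic fibre genes Fbln5 (0.78, adjusted p = 0.00752), Mfap5 (1.75, 0.00829), Eln (1.07, 0.0453) and the cross-linking enzyme gene Lox (0.84, 0.0232) rose together with the collagen genes Col1a1 (0.57, 0.0367), Col6a1 (0.70, 0.0176), Col6a2 (0.69, 0.0159) and Col14a1 (1.39, 0.0322). Postn (1.25, 0.0384) and Lum (1.1, 0.0497), the genes of periostin and lumican, completed them. Of 18 genes of matrix remodelling, the protease inhibitor genes Serpine2 (0.87, adjusted p = 0.00116) and Timp3 (1.07, 0.00796) and the collagen hydroxylase gene P4ha1 (0.60, 0.000380) rose and 0 fell.

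Beside these rises the summed endothelial transcripts were also higher at E13.5, as given above, and with macrophage, endothelial and erythroid levels as covariates 2 of the 41 matrix genes were called, with a median of 0.27 in place of 0.41. Dcn had 1.58 in that fit and kept its call, and Serpine2 and P4ha1 did so with 0.66 and 0.70. Left out 1 at a time, the SO libraries gave 14 matrix calls without E13.5 replicate 1, 10 without E12.5 replicate 3, 7 without E13.5 replicate 2, 5 without E12.5 replicate 1 or 2 and 4 without E13.5 replicate 3. The calls of Dcn, Sparc, Fbln5, Serpine2, Timp3 and P4ha1 held in all 6 cases. Those of Bgn (0.0576 without E13.5 replicate 3) and Mfap5 (0.0504 without E12.5 replicate 2) ended in 1, and those of Eln, Lox, Col1a1, Col6a1, Col6a2, Col14a1, Postn and Lum in 3 to 5 (adjusted p up to 0.192).

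Of 18 cartilage and bone genes 3 fell and 0 rose, beside 4.09% and 3.01% of all genes, while the median change was 0.05 and 9 of the 18 changes were positive. The falls were in the collagen genes Col2a1 and Col9a1 and the factor gene Sox5. Col2a1 (chromosome 15, 97975602 to 98004695) had 5.20, 5.54 and 5.77 log2 CPM at E13.5, against 7.26, 7.33 and 7.86 at E12.5 (-1.98 ± 0.53, adjusted p = 0.0254). The groups were far apart in SO, but the call ended without any 1 of the SO libraries (adjusted p up to 0.0891). Col9a1 changed by -1.28 (adjusted p = 0.0372, up to 0.184 without each SO library but E13.5 replicate 1) and Sox5 by -1.02 (0.00940, held in all 6 cases).

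The guidance, Hox, Hedgehog and imprinted counts stand beside the 3.01% of all genes that rose and the 4.09% that fell. Of 31 axon guidance genes 3 rose and 5 fell. Efna5, an ephrin gene (chromosome 17, 62604184 to 62881317), had 5.85, 5.61 and 5.56 log2 CPM at E13.5, against 6.67, 6.69 and 6.74 at E12.5 (-1.03 ± 0.13, adjusted p = 8.63e-05), and the semaphorin gene Sema3c (chromosome 5, 17574281 to 17730268) had 8.10, 8.08 and 7.99 log2 CPM at E13.5, against 7.15, 7.11 and 7.38 at E12.5 (0.84 ± 0.21, 0.0185). Both were tight within each stage. Plxna2 (-0.61, adjusted p = 0.0196), which has near-identical stretches at 10 other loci, Slit3 (-0.63, 0.0261) and Sema3f (-0.58, 0.0354) fell as well. Of 33 Hox genes Hoxc10 (-0.65, adjusted p = 0.00268), Hoxb3 (-0.46, 0.0114) and Hoxa9 (-0.54, 0.0121) fell and 0 rose, and of 10 Hedgehog genes the factor Gli3 (-0.63, 0.00276) and the co-receptor Boc (-0.45, 0.0136) fell. Of 21 imprinted growth genes 7 fell. Peg3 (chromosome 7, 6703892 to 6730431) had 10.17, 9.75 and 9.81 log2 CPM at E13.5, against 10.90, 11.04 and 10.67 at E12.5 (-0.96 ± 0.16, adjusted p = 0.00120). The other falls included Peg10 (-0.89, 0.000686), the growth factor gene Igf2 (-0.38, 0.00542), its signalling brake Grb10 (-0.34, 0.00295) and the cell cycle inhibitor gene Cdkn1c (-0.32, 0.0178), while Dcn, which also stands in that list, rose.

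Receptors and ligands of other pathways changed singly. Hippo genes gave 1 rise and 1 fall among 14 (median change -0.01), and Notch genes 1 rise among 14 (0.11). GDNF and FGF gave 1 rise and 1 fall among 16 (0.01), and bone morphogenetic protein and TGF-beta 2 falls among 26 (0.16). Insulin-like growth factors gave 1 rise and 1 fall among 11 (0.23), and chemokines and scavengers 1 and 1 among 8 (0.45). Immediate early genes gave 1 rise among 21 (0.47). These counts stand beside the 3.01% of all genes that rose and the 4.09% that fell. Ctgf, a target of YAP that encodes a matrix-bound protein, had 5.54, 5.98 and 5.58 log2 CPM at E13.5, against 4.53, 4.52 and 5.03 at E12.5. It rose by 1.01 (adjusted p = 0.0176). The Notch modifier gene Lfng (1.20, 0.0229), the FGF-responsive factor gene Etv5 (0.44, 0.0312), the insulin-like growth factor-binding gene Igfbp7 (1.44, 0.0124), the flow-responsive factor gene Klf2 (1.64, 0.0150) and the decoy chemokine receptor gene Ackr4 (1.42, 0.0310) rose. The receptor genes Fgfr1 (-0.33, adjusted p = 0.00350) and Tgfbr1 (-0.32, 0.0409) and the ligand gene Tgfb2 (-0.55, 0.0111) fell. Within the SO libraries left out 1 at a time, the calls of Efna5, Hoxc10, Gli3, Peg3, Peg10, Igf2, Grb10 and Fgfr1 held. Those of Sema3c, Plxna2, Slit3, Sema3f, Hoxb3, Hoxa9, Boc, Cdkn1c, Ctgf, Lfng, Etv5, Igfbp7, Klf2, Ackr4, Tgfbr1 and Tgfb2 ended without 1 to 5 of them (adjusted p up to 0.206). The falls of the guidance list numbered 1 without E12.5 replicate 2 and 2 without E12.5 replicate 3 or E13.5 replicate 2 or 3, and those of the imprinted list 4 without E12.5 replicate 2 or E13.5 replicate 3. With the other cell types as covariates the calls of Ctgf, Lfng, Etv5, Igfbp7, Klf2, Ackr4, Fgfr1, Tgfbr1 and Tgfb2 ended (adjusted p 0.0799 to 0.264). Those of Hoxc10, Gli3 and Igf2 ended as well (up to 0.0881). What part endothelial transcripts, whose sum separated the stages, have in these changes was not tested.

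Glycolysis and growth genes moved in small steps. Of 24 genes of glycolysis and hypoxia 7 rose and 0 fell, beside 3.01% and 4.09% of all genes, with a median of 0.35. Ldha, the enzyme gene for lactate (chromosome 7, 46841475 to 46855627), had 9.64, 9.76 and 9.76 log2 CPM at E13.5, against 9.06, 9.19 and 9.11 at E12.5 (0.60 ± 0.09, adjusted p = 0.000333), but it is near-identical to 5 other loci. P4ha1 (chromosome 10, 59323296 to 59373304) had 7.79, 7.47 and 7.48 log2 CPM at E13.5 and 7.04, 6.92 and 6.97 at E12.5, and Vegfa, the vessel growth factor gene (chromosome 17, 46016993 to 46032369), had 6.94, 6.84 and 6.99, against 6.49, 6.46 and 6.35 at E12.5 (0.49 ± 0.10, adjusted p = 0.00481). All 3 genes stood apart between the stages and kept their call without any 1 of the SO libraries. Aldoa (0.34, adjusted p = 0.0134), Pgk1 (0.32, 0.0138), Eno1 (1.23, 0.0354) and Tpi1 (0.31, 0.0463) rose too. Aldoa and Pgk1 have near-identical stretches at 2 and 4 other loci, and Eno1 and Tpi1 were not searched for them. The list gave 4 calls without E12.5 replicate 1 or E13.5 replicate 3, and 3 with the other cell types as covariates.

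The counts in this paragraph stand beside the 3.01% of all genes that rose and the 4.09% that fell. Of 62 ribosomal protein genes 12 rose and 0 fell, with a median of 0.21. The changes lay between 0.22 and 0.43 but for Rpl34 (1.77), and many of these genes have near-identical copies, so that their values are uncertain. Without E12.5 replicate 2 none of them was called, without E13.5 replicate 2 or 3 1 was, without E12.5 replicate 1 3 and without E12.5 replicate 3 6 were, and without E13.5 replicate 1 17 were. Of 15 genes of endoplasmic reticulum stress and amino acid supply Sdf2l1 (0.81, adjusted p = 0.00383), Psat1 (0.64, 0.00570), Atf5 (0.47, 0.0235) and Hsp90b1 (0.28, 0.0333) rose. The replication genes Mcm6 (-0.27, 0.00593) and Mcm4 (-0.23, 0.0498) fell among 20. Of 12 D cyclin, Myc family and CDK inhibitor genes Mycl (-0.57, adjusted p = 0.00777), Mycn (-0.44, 0.0276) and Cdkn1c fell and Myc rose. Among these the calls of Atf5, Hsp90b1, Mcm4, Mycn and Myc ended without 4 to 6 of the SO libraries (adjusted p up to 0.213), so that the stress list gave 2 rises without E12.5 replicate 2, and those of Sdf2l1, Psat1, Mcm6 and Mycl held.

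**Figure D4:**
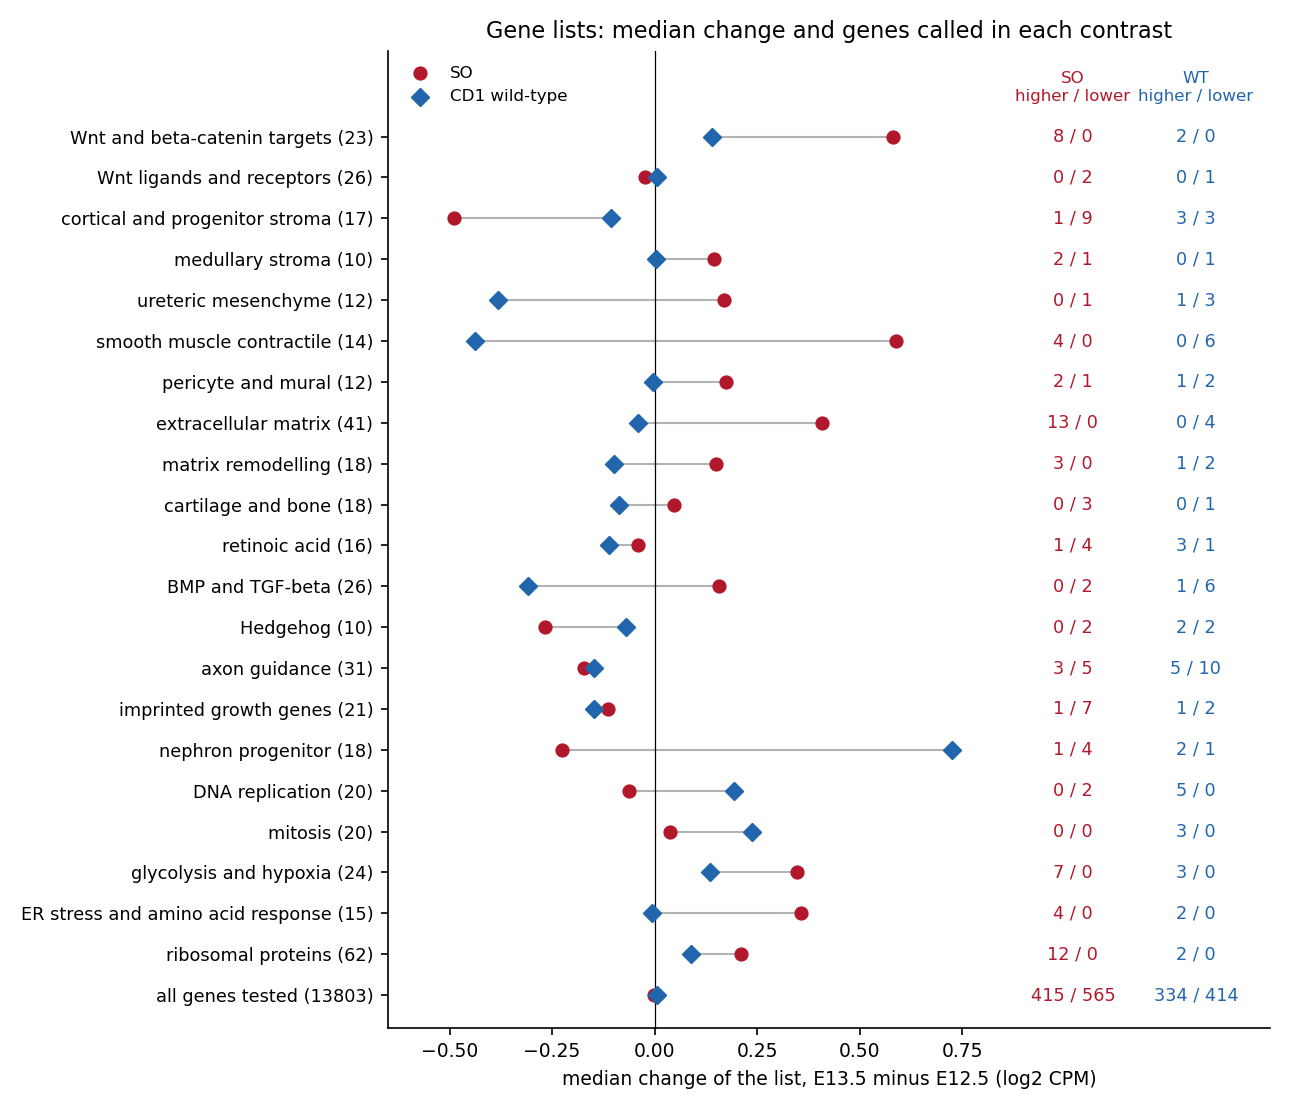
Rows are 21 gene lists and all 13803 genes, and the x axis is the median change at E13.5 minus E12.5 in log2 CPM, with circles for SO and diamonds for CD1 wild-type. The numbers give the genes called higher and lower: 8 and 0 of the Wnt targets, 4 and 0 of the contractile genes and 1 and 9 of the cortical and progenitor genes in SO.

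The same stages were compared in CD1 wild-type cells, which share no library with SO, to see where SO changed otherwise. In wild-type 748 genes passed the test (5.42%), 334 higher and 414 lower at E13.5. Genes that rose in both numbered 46, which is 11.1% of the SO and 13.8% of the wild-type rises, and 88 fell in both, 15.6% and 21.3%. In SD 38 genes (0.275%) and in C57BL/6 wild-type 546 (3.96%) passed the test between the stages. Called in the same direction in all 4 genotype groups were 0 rises and 2 falls, the matrix gene Efemp1 (-1.16 in SO, adjusted p = 0.00940) and Tgfb2. Their SO calls ended without E12.5 replicate 2 (0.0656 for Efemp1), for Tgfb2 also without E13.5 replicate 3 (up to 0.0704), and with the other cell types as covariates (0.0862 and 0.135). The difference of the stage change, SO minus wild-type, passed the test in 183 genes (1.33%): 99 higher in SO (0.717%) and 84 lower (0.609%), with 44 and 41 of at least 2-fold. Of the 99, 45 fell in wild-type and had no call in SO, 36 rose in SO and had no call in wild-type, 6 did both and 12 neither. Of the 84, 47 fell in SO without a call in wild-type, 28 rose in wild-type without one in SO, 4 did both, 4 neither and 1 fell in both. The count of 183 was 532 without wild-type E13.5 replicate 1, the library with 1108 CPM of endothelial transcripts. That library also had the highest erythroid (4101 CPM), nephron progenitor (489 CPM) and ureteric bud (297 CPM) sums of the 12 CD1 libraries. Its stromal sum was the lowest (7426 CPM). The count was 64 without wild-type E13.5 replicate 3, which held 887 CPM of liver transcripts, and 122 without SO E13.5 replicate 2. It was 95, 89 and 79 without SO E12.5 replicates 1, 2 and 3. Without wild-type E12.5 replicates 1, 2 and 3, which held 208, 198 and 193 CPM of liver transcripts, it was 88, 78 and 61.

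The change differed between SO and wild-type in 4 of the 14 contractile genes, beside 0.717% of all genes with a higher change in SO. In SO, Myh11 (chromosome 16, 14194535 to 14291372) had 4.04, 4.16 and 4.06 log2 CPM at E13.5 and 3.82, 3.73 and 2.84 at E12.5. In CD1 wild-type it had 1.17, 1.37 and 0.81 log2 CPM at E13.5 and 3.53, 3.94 and 3.97 at E12.5. The wild-type stages were far apart and those of SO close, so that the change in SO exceeded that in wild-type by 3.32 ± 0.66 (adjusted p = 0.0133). Tagln, which encodes the actin-binding protein transgelin and overlaps Pcsk7 on the other strand, had 6.69, 7.42 and 7.39 log2 CPM at E13.5 and 6.32, 6.61 and 6.41 at E12.5 in SO, and 4.48, 5.18 and 4.36 at E13.5 and 6.09, 6.29 and 6.42 at E12.5 in wild-type (difference 2.31 ± 0.43, adjusted p = 0.00858). For Cnn1 the change was 0.89 in SO and -2.67 in wild-type (difference 3.56, adjusted p = 0.0318). Acta2 rose in SO and fell in wild-type, where it had 5.69, 6.42 and 5.54 log2 CPM at E13.5 and 6.78, 7.19 and 7.04 at E12.5 (difference 2.08 ± 0.39, adjusted p = 0.00848). Of the 14 contractile genes 0 rose and 6 fell in wild-type, beside 2.42% and 3.00% of all genes. The macrophage transcripts of wild-type summed to between 336 and 459 CPM at E13.5 and to between 827 and 853 CPM at E12.5, without overlap. Its erythroid sums ran from 50.3 to 4101 CPM at E13.5 and from 3262 to 3378 CPM at E12.5. Endothelial sums ran from 71.9 to 1108 CPM and from 143 to 533 CPM, and liver sums from 0.781 to 887 CPM and from 193 to 208 CPM. What part liver transcripts have in the wild-type falls was not tested. The call of the difference for Cnn1 ended without any 1 of 7 of the 12 CD1 libraries (adjusted p up to 0.0902), and those of Myh11, Tagln and Acta2 held. With macrophage, endothelial and erythroid levels as covariates the differences of Myh11 (2.77, adjusted p = 0.0806) and Cnn1 (3.33, 0.0960) were no longer called, and those of Tagln and Acta2 were.

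Of the 23 Wnt targets 3 had a higher change in SO than in wild-type, beside 0.717% of all genes. Nkd1 had 5.90, 6.05 and 6.24 log2 CPM at E13.5 and 6.43, 6.32 and 6.24 at E12.5 in wild-type, and its change in SO exceeded that in wild-type by 0.99 (adjusted p = 0.00644). Nkd2 (difference 1.54, adjusted p = 0.0129) and Dkk2 (1.38, 0.0356) were called as well, and Axin2 was not (0.26, 0.593). Of the bone morphogenetic protein and TGF-beta list the difference was called in 4 of 26, all higher, beside 0.717% of all genes: Bmper (1.08, adjusted p = 0.00362), Bmp5 (1.49, 0.0130), Bmp4 (1.28, 0.0304) and Inhba (1.75, 0.0327). In SO none of these 4 passed the test between the stages, and in wild-type Bmper, Bmp5 and Bmp4 fell. Cavin1 (1.09, adjusted p = 0.0476), Rhob (0.93, 0.00147), Serpine2 (0.99, 0.0191), Ctgf (1.78, 0.0138) and the adenylyl cyclase gene Adcy5 (2.23, 0.00291) were higher in the same test. The largest difference among called genes was that of Rpl35a (6.15, adjusted p = 5.28e-07), which was at 6.07, 4.55 and 4.66 log2 CPM at E13.5 and 4.64, 4.25 and 4.69 at E12.5 in SO, and at -2.74, -2.17 and -3.94 at E13.5 and 2.15, 2.42 and 3.33 at E12.5 in wild-type. It is near-identical to 20 other loci, so that its value is uncertain.

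Aldh1a2 and Fibin fell in SO and did not in wild-type. Aldh1a2 had 9.91, 10.55 and 10.85 log2 CPM at E13.5 and 9.92, 9.73 and 9.80 at E12.5 in wild-type, a rise of 0.62 (adjusted p = 0.0302), and the difference was -1.48 ± 0.23 (0.00285). Fibin had 4.96, 5.31 and 5.96 log2 CPM at E13.5 and 5.07, 5.19 and 5.02 at E12.5 in wild-type (0.32, adjusted p = 0.311), with a difference of -1.78 ± 0.25 (0.00129). Foxd1, at 8.26, 8.92 and 8.84 log2 CPM at E13.5 and 9.05, 8.82 and 8.81 at E12.5 in wild-type, gave no call for the difference (-0.49, adjusted p = 0.275), nor did Ebf2, which fell in both (-2.07 in SO and -1.25 in wild-type, difference -0.82, 0.116). Plch1, a phospholipase C gene (chromosome 3, 63696234 to 63899472), had 2.59, 2.17 and 2.26 log2 CPM at E13.5 and 3.29, 3.44 and 3.47 at E12.5 in SO, and 5.31, 5.58 and 5.52 at E13.5 and 4.68, 4.53 and 4.55 at E12.5 in wild-type (difference -1.94 ± 0.23, adjusted p = 0.000153). It fell in SO and rose in wild-type, with no overlap in either. The prostaglandin receptor gene Ptgfr (-2.43, adjusted p = 0.0195), the glutamate receptor gene Grm3 (-2.61, 0.00702), the axon guidance gene Ntn1 (-1.53, 0.00848) and the retinoic acid-binding gene Crabp2 (-0.57, 0.0147) were lower in the same test. In Gdnf, the ligand that drives the ureteric bud, the change was -0.31 in SO and 0.89 in wild-type (difference -1.20, adjusted p = 0.0499).

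Genes called in opposite directions numbered 10, and they are named for that reason after their values were seen. Acta2, Adcy5, Epb41l2, Gpr85, Tubb2a and 1190002N15Rik rose in SO and fell in wild-type. Aldh1a2, Plch1, the neurotrophin receptor gene Ngfr and Stxbp6 fell in SO and rose in wild-type. Ngfr averaged 3.41 ± 0.33 log2 CPM at E13.5 and 4.50 ± 0.14 at E12.5 in SO, and 5.36 ± 0.40 at E13.5 and 4.65 ± 0.11 at E12.5 in wild-type (SD, n = 3 each; limma difference -1.80, adjusted p = 0.00269). The difference was called for all 10, with adjusted p between 0.000153 and 0.00848. As these genes were chosen by opposite calls in the same fit, this was largely set by the choice and is no separate support. The same limit holds for their differences with 1 library left out. The SO calls of Acta2, Adcy5, Epb41l2, Tubb2a and Stxbp6 ended without 3 to 5 of the SO libraries (adjusted p up to 0.181), while every call of the difference for the 10 held without any 1 of the 12 CD1 libraries. Of the other differences named here, those of Dkk2, Cavin1, Ptgfr, Bmp4, Inhba and Gdnf ended without 5 to 10 of the 12 (adjusted p up to 0.152), that of Serpine2 without wild-type E12.5 replicate 2 or 3 (up to 0.0593) and that of Crabp2 without wild-type E13.5 replicate 3 (0.0551). With the other cell types as covariates the differences of Dkk2 (adjusted p = 0.0889), Cavin1 (0.275), Ctgf (0.0735) and Crabp2 (0.130) were no longer called, and with voom weights those of Nkd2 (0.0718), Dkk2 (0.0521), Grm3 (0.0974), Ptgfr (0.122) and Rpl35a (0.186).

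**Figure D5:**
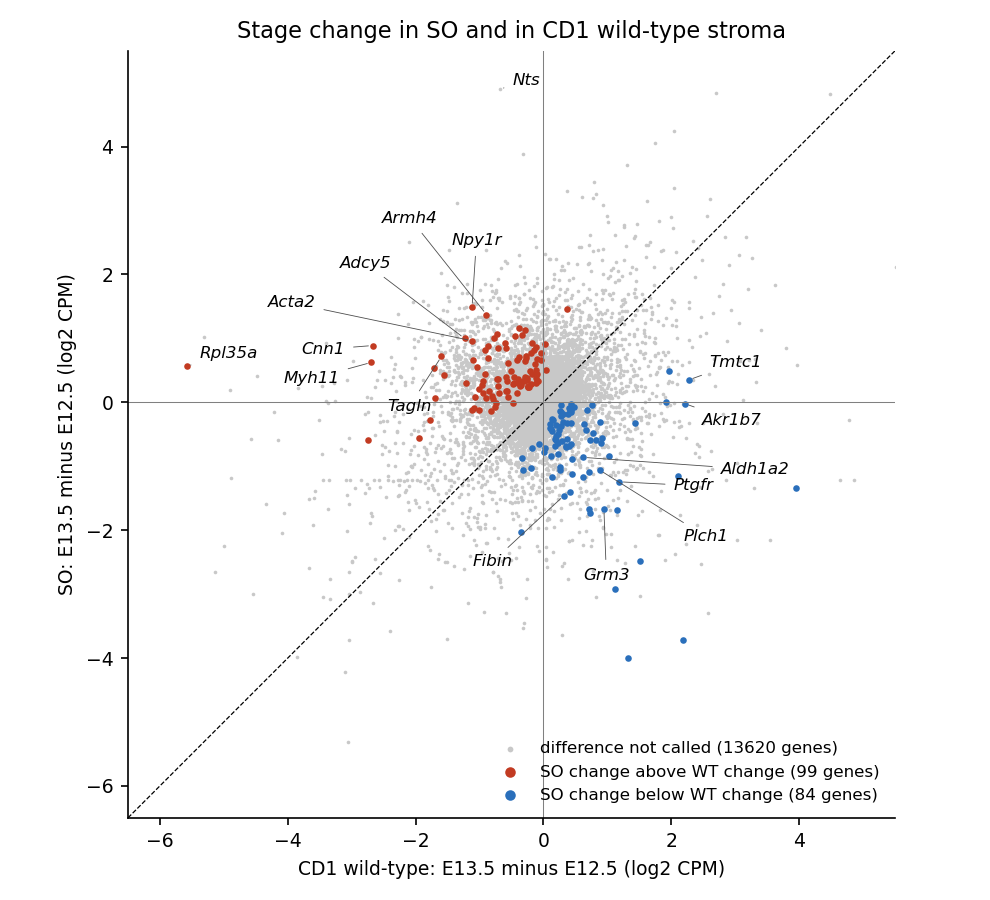
Each point is 1 of 13803 genes, with the change at E13.5 minus E12.5 in SO on the y axis and in CD1 wild-type on the x axis, both in log2 CPM, and the dashed line marks equal change. The 99 genes whose change in SO was higher are red, the 84 lower blue and the 13620 not called grey, with Acta2, Tagln, Myh11 and Cnn1 left of the line and Aldh1a2, Fibin and Plch1 right of it.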

How the data were processed

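RNA from sorted FoxD1Cre-eGFP stromal cells was sequenced on an Illumina HiSeq, per the labels. The authors deposited 1 table of log2 CPM values for 13803 genes in 24 libraries, for which the submitters' processing notes list the mm10 build, the aligner HISAT2, the counter HTSeq and limma. Versions, the strand of counting and the filter on low genes are not stated there. With 0.5 taken off, 100% of the values came within 0.1 of whole reads. No column was left unmapped.

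Groups were compared on the deposited log2 values with limma 3.58.1 (R 4.3.3), fitting 8 group means over 24 libraries with a mean-dependent prior spread and Benjamini-Hochberg adjustment over all 13803 genes. A filter of 3 libraries above 0 log2 CPM removed no gene. SO libraries held 6.18 to 21.2 M reads, and precision was poorest for low genes.

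Named genes were, among called genes with a given name and a mean above 1 log2 CPM, the 12 largest rises and falls and the 6 of smallest p each way whose SO stages did not overlap, and the 8 largest differences each way. Up to 5 called members of each list, genes called in all 4 stage contrasts, Ctnnb1, Foxd1, Axin2, Lef1, Nkd1 and Notum were added. Further called members of lists were named after their values were seen. Members and lists were chosen with earlier results of these data known. Positions are those of GENCODE M21 on mm10, where 13681 of 13803 symbols and 160 of 161 named genes matched; near-identical loci are BLAST 2.17.0 matches of at least 95% over 150 bases. Promoters are from RefSeq. Python 3.11.15 with pandas 2.3.3 and matplotlib 3.10.9 made the tables and plots. The fit was checked on simulated data.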

Additional observations from a re-analysis of the deposited data

Results flagged for a closer look

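Genes named for SO whose stage change differed from that of CD1 wild-type, by limma's test of the difference (SO minus wild-type, log2, adjusted p under 0.05 over all genes), were looked at again. Those with a higher change in SO were Rpl35a (6.15), Cnn1 (3.56), Myh11 (3.32), Npy1r (2.60), Tagln (2.31), Armh4 (2.27), Ndnf (2.25), Adcy5 (2.23), Acta2 (2.08), Ctgf (1.78), Nkd2 (1.54), Dkk2 (1.38), Cavin1 (1.09), Nkd1 (0.99), Serpine2 (0.99), Fbln5 (0.97) and Rhob (0.93). Npy1r encodes a receptor of neuropeptide Y and Ndnf a secreted neurotrophic protein.

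Those with a lower change in SO were Polr2l (-2.84), Grm3 (-2.61), Ptgfr (-2.43), Mcf2 (-2.38), Akr1b7 (-2.23), Plch1 (-1.94), Tmtc1 (-1.92), Itga3 (-1.91), Fibin (-1.78), Tmem108 (-1.67), Aldh1a2 (-1.48), Sema3f (-0.94), Efna5 (-0.83), Mycl (-0.74), Rflnb (-0.73), Mycn (-0.68), Crabp2 (-0.57), Pik3r3 (-0.54), Sall1 (-0.54) and Mcm6 (-0.43). Itga3 encodes an integrin subunit and Akr1b7 an aldose reductase-like enzyme. Polr2l and Rpl35a share near-identical stretches with other loci. Of these 37 differences 21 lost the call without at least 1 of the 12 CD1 libraries: Akr1b7, Cavin1, Cnn1, Crabp2, Dkk2, Efna5, Fbln5, Itga3, Mcf2, Mycl, Mycn, Ndnf, Npy1r, Pik3r3, Polr2l, Ptgfr, Sall1, Sema3f, Serpine2, Tmem108 and Tmtc1 (adjusted p up to 0.144). Covariates for other cell types ended 20 of the 37 and voom weights 16.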

How the results depend on the processing

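The 980 calls between the stages in SO became 204 with macrophage, endothelial and erythroid levels as covariates and 200 at a minimum of 2-fold. The 748 wild-type calls became 246 and 188, and the 183 differences became 85 at 2-fold. Leaving out 1 library gave 356 to 880 calls in SO, 290 to 785 in wild-type and 61 to 532 differences. The other alternatives stayed within 1.5 times: in SO they gave 790 calls with reads thinned to equal depth, 853 from the 12 CD1 libraries, 905 with voom weights and 1177 from the 6 SO libraries. In the thinned, covariate and voom fits the cause of a lost call was not tested. Rises were 50.6% of the SO calls from the 6 SO libraries and 42.3% in the reported fit. Of the differences, 154 were higher and 56 lower from the 12 CD1 libraries, and 93 and 41 with voom weights. Of 123 genes named for SO, covariates ended 87 calls and reversed 1 value: Notum, uncalled in both fits, had -1.52 with them. The minimum fold ended 67, the thinned, voom, block and smaller-sample fits 5 to 17 each, and adding 2 to each count none. Of 37 named differences covariates ended 20, voom weights 16 and the fit to the 12 CD1 libraries 10, and 88 of the 183 differences were also called with covariates. Replicate numbers did not pair the libraries: deviations of same-numbered SO libraries correlated at 0.095, -0.041 and 0.052. With the replicate block there were 1008 calls in SO, 933 of them among the 980, 826 in wild-type and 188 differences. The planned edgeR and DESeq2 fits were not run, and voom stood in for them on the recovered reads. At 6.18 to 6.67 M reads in E12.5 SO libraries, genes such as Nts rest on 2 to 5 reads there.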

Other observations

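The E13.5 SO libraries were not alike in their distance from E12.5. Replicate 3 lay farthest from E12.5 in 215 of the 415 genes that rose (51.8%) and in 235 of the 565 that fell (41.6%). Replicate 1 lay nearest in 246 (59.3%) and 318 (56.3%). Which feature of the kidneys or of their handling goes with this was not tested.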
